A study of Homo sapiens with 6 samples.

Results

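Translation initiation factors are the proteins that bring a ribosome to the start codon of an mRNA, and 40 of their genes are described here in ribosome footprint libraries of RKO cells. The 40 were chosen by name and found in the deposited table by Ensembl identifier, among 20289 genes in all. RKO is a human colorectal cancer cell line. The 3 shTRMT6 libraries come from RKO cells with a short hairpin RNA against TRMT6, and the 3 shControl libraries from RKO cells with a control hairpin, which the labels also call WT. TRMT6 forms with TRMT61A the enzyme that makes m1A in cytosolic tRNAs. No clone, time or hairpin sequence is labelled. Whether the 3 libraries of a group come from separate cultures is not stated either, so the p-values below measure the spread between libraries only, which may be technical.

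Initiation runs through a series of complexes. eIF2 with GTP carries the initiator tRNA to the small ribosomal subunit, eIF1, eIF1A, eIF3 and eIF5 join it there, and eIF4F, made of the cap-binding protein eIF4E, the scaffold eIF4G and the helicase eIF4A, links the subunit to the mRNA cap. After scanning to the start codon eIF5 triggers GTP hydrolysis by eIF2, eIF5B joins the large subunit, and eIF2B recharges eIF2 with GTP. Poly(A)-binding protein bridges the mRNA tail to eIF4G, and 4E-BP proteins, when mTORC1 does not phosphorylate them, keep eIF4E away from eIF4G. Many mRNAs of the translation apparatus start with a C followed by a run of pyrimidines, the TOP tract, through which mTORC1 and LARP1 control their translation.

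Footprints were lower on EIF3I, EIF3F and EIF4H and higher on PABPC1 and EIF4A2 in shTRMT6 cells, and these 5 genes passed the threshold in the main test and in every one of 15 alternative analyses (other scalings, filters and settings, and fits without 1 library). In the main test 6 of the 40 genes were higher, namely PABPC1, EIF5B, EIF4G1, EIF4A2, PABPC4 and EIF4B. Another 8 were lower, namely EIF3I, EIF4H, EIF4EBP1, EIF3F, EIF1AX, EIF4E, EIF6 and EIF3M, and 26 did not pass. The test was limma on log2(FPKM + 1) over 11566 genes, with Benjamini-Hochberg adjusted p under 0.05, and all 40 genes passed its filter of at least 1 FPKM in at least 3 libraries. Over all genes tested, 26.5% were called higher and 9.04% lower. The median log2 fold change was -0.01 over the 40 genes and 0.39 over all genes tested. The groups did not overlap, with shTRMT6 above, for 9 of the 40 genes, and with shTRMT6 below for 13, against 37% and 14.3% of all genes tested. A footprint level joins the amount of an mRNA with the ribosomes on each copy, which cannot be told apart here, nor can fewer cells and less RNA per cell in bulk libraries. With each library scaled to its median, 4 of the 40 were higher and 17 lower, against 13.1% and 19.7% of all genes. The 9 genes added to the lower side were EIF1, EIF2S1, EIF2S2, EIF3B, EIF3E, EIF3H, EIF3K, EIF4A1 and EIF4E2, and EIF4B and PABPC4 lost their call. Quantile normalization gave 7 higher and 4 lower, against 13.9% and 14.7% of all genes. With equal sums over nuclear-encoded genes, 9 were higher and 5 lower, against 36.2% and 6.11% of all genes. The median log2 fold change of all genes was -0.067 with median scaling and 0.605 with equal sums. After removal of the trends of the change with footprint level and with coding length, 4 were higher and 5 lower, against 13.4% and 13.5% of all genes.

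The label of the knockdown was checked on TRMT6 itself (ENSG00000089195), which had 20.7, 21.9 and 24.1 FPKM in shTRMT6 libraries, against 57.6, 58.4 and 95.3 FPKM in shControl libraries. The deposited FPKM gave an estimated 2590000 to 4080000 reads on coding sequence per shTRMT6 library and 2600000 to 3910000 per shControl library. Marker genes of epithelium summed to 150 to 175 FPKM in shTRMT6 libraries and 148 to 252 FPKM in shControl libraries, mostly KRT18, while CDH1 was listed at 0 in every library. Of the colon markers CDX2 had 18.5 to 21.0 FPKM in shTRMT6 and 10.3 to 17.0 FPKM in shControl libraries, and VIL1 and CDX1 were listed at 0. Immune markers were listed at 0 in all 6 libraries, and fibroblast and endothelial markers summed to at most 0.7 FPKM. The control library replicate 3 stood apart. It was the farthest from the other two of its group for 28 of the 40 initiation factors and for 51.9% of all genes tested. Without it, 11 of the 40 were higher and 12 lower, against 28.3% and 12.3% of all genes. The 9 genes added there were EIF2B2, EIF2B4, EIF3A, EIF3C and EIF3D on the higher side and EIF1, EIF3E, EIF3K and EIF4E2 on the lower, and no gene called with all libraries lost its call. Leaving out any other library gave fewer calls. Of the 40 genes 5 were higher and 3 lower without shControl replicate 1 (19.3% and 5.91% of all genes), 5 and 4 without shControl replicate 2 (27.1% and 8.01%), 5 and 3 without shTRMT6 replicate 1 (16.9% and 5.08%), 4 and 3 without shTRMT6 replicate 2 (18% and 6.29%), and 3 and 5 without shTRMT6 replicate 3 (15.8% and 5.18%).

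**Figure D1:**
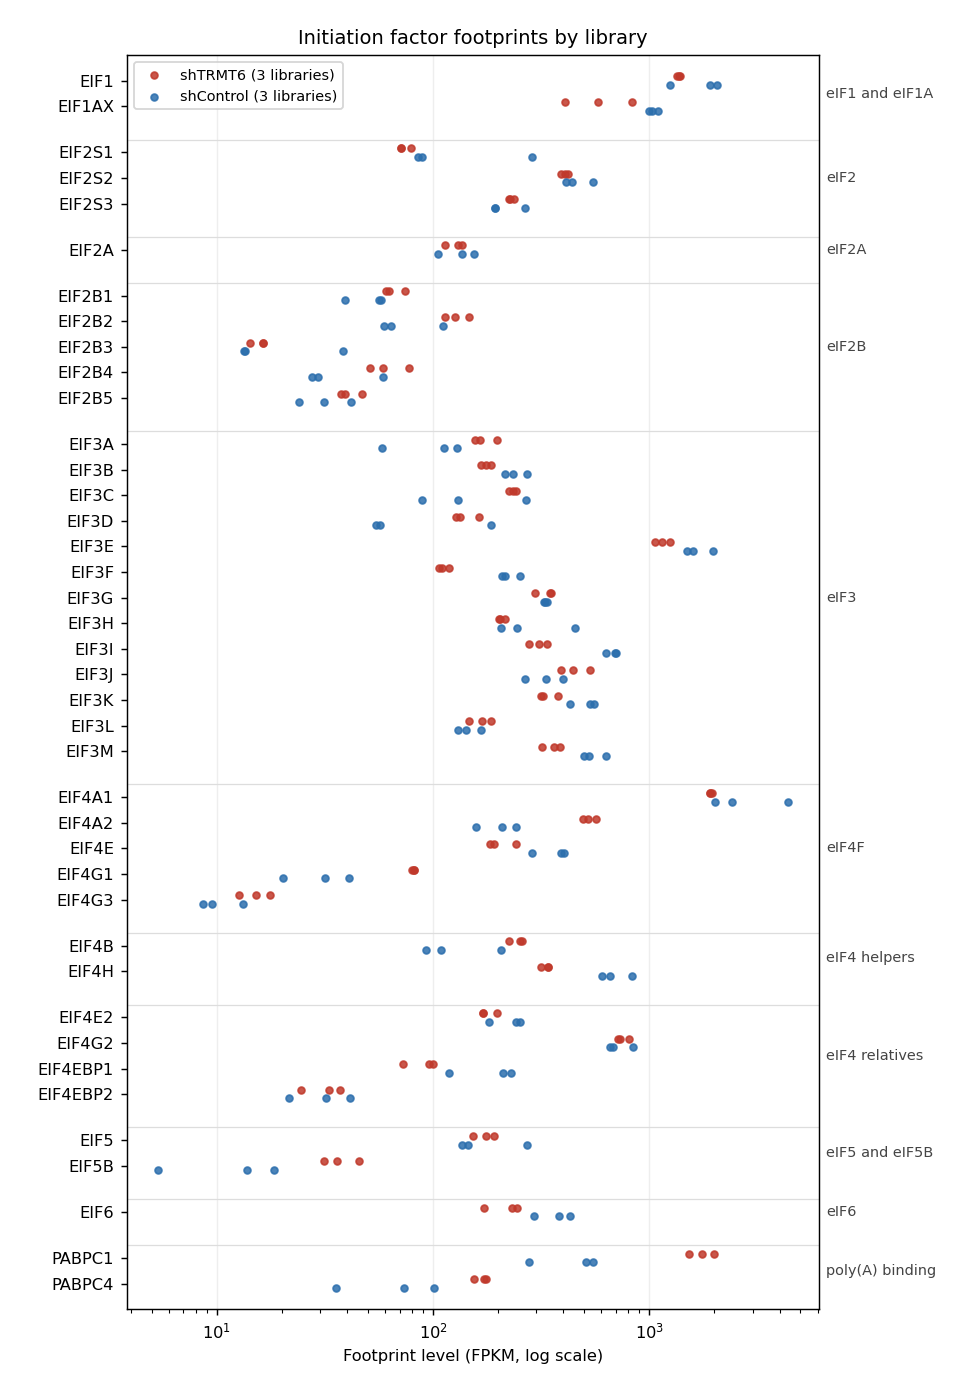
Footprint level in FPKM (horizontal log axis) of the 40 initiation factor genes, grouped by complex, with 1 point per library, shTRMT6 above shControl in each row. PABPC1, at 1518 to 1998 FPKM in shTRMT6, and EIF4A2 lie right of all their shControl points, while EIF3I, EIF4H and EIF3F lie left of theirs.

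TOP tracts were looked for at the RefSeq gene starts (GRCh38.p14), since TOP mRNAs are a known class among these genes. A tract was counted where the annotated start base is a C followed by at least 4 pyrimidines on the gene's strand. The table of starts holds 31 of the 40 genes, and 8 of them (25.8%) had such a tract, against 7.71% of 9322 tested genes in that table. The windows run from 15 bases before the annotated start to 15 bases from it on, 5′ to 3′ on the gene's strand, with the tract in capitals. They are shown because genes with a counted tract differed in the direction of their change. Tract lengths ran from 5 bases in EIF4B to 10 in EIF3D and EIF3F.
EIF4A2 (chr3:186783562-186783591, plus strand): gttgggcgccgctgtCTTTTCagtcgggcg
EIF4B (chr12:53006441-53006470, plus strand): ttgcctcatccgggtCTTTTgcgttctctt
EIF3D (chr22:36529152-36529181, minus strand): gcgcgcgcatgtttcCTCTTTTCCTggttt
EIF2S3 (chrX:24054941-24054970, plus strand): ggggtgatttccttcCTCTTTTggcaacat
EIF2A (chr3:150546772-150546801, plus strand): tcacccgagcggtttCTCTTTCCgggacaa
EIF3K (chr19:38619173-38619202, plus strand): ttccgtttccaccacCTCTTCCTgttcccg
EIF3M (chr11:32583816-32583845, plus strand): gcgcggcccagttccCTTTTCCggtcggcg
EIF3F (chr11:7987322-7987351, plus strand): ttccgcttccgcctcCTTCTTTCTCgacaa

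Of these 8 genes, 2 were called higher (EIF4A2 and EIF4B) and 2 lower (EIF3M and EIF3F), beside 26.5% and 9.04% of all genes tested. Their log2 fold changes ran from -1.0 to 1.40 with a median of 0.03. Among the 23 genes with a start in the table and no tract there, 2 were higher and 5 lower, beside the same shares of all genes, with a median of -0.02 and a range of -1.14 to 1.64. The other 9 genes, PABPC1 among them, had no start in the table. Of these 2 were higher and 1 lower, beside the same shares, with a range of -1.0 to 2.02. A set of 5 genes known from earlier work to have TOP mRNAs, EIF3E, EIF3F, EIF3H, EIF4B and PABPC1, also split. Only EIF3F and EIF4B of this set had a tract counted above, so a gene without a counted tract may still have a TOP mRNA. PABPC1 and EIF4B were higher, EIF3F was lower, and EIF3E and EIF3H had log2 fold changes of -0.54 and -0.46 that did not pass. These 2 higher and 1 lower of 5 stand beside the same 26.5% and 9.04%, and EIF4B lost its call with median scaling.

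The start codon scanning factors had fewer footprints on EIF1AX. EIF1AX encodes eIF1A, which holds the small subunit in its scanning form together with eIF1. It had 576, 410 and 836 FPKM in shTRMT6 libraries, against 1025, 1001 and 1099 FPKM in shControl libraries. All 3 shTRMT6 libraries lay below all shControl libraries, and shTRMT6 replicate 2 was the lowest. EIF1AX had a log2 fold change of FPKM + 1 of -0.84 (SE 0.26, limma adjusted p = 0.0338), and the call was lost in 9 of the 15 alternatives, with adjusted p from 0.00501 to 0.354. EIF1 had 1370, 1346 and 1381 FPKM in shTRMT6 libraries and 2049, 1904 and 1249 FPKM in shControl libraries. The groups overlapped because of the control replicate 3, and the log2 fold change of -0.31 did not pass (limma adjusted p = 0.315). Without that library EIF1 was lower (-0.53, adjusted p = 0.0115, against 0.315 with all libraries). The FPKM of the pair summed to 1973 ± 232 in shTRMT6 and 2775 ± 380 in shControl (SD, n = 3 each).

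None of the 3 eIF2 subunits passed in the main test. With median scaling EIF2S1 (log2 fold change -1.29, limma adjusted p = 0.0424) and EIF2S2 (-0.69, limma adjusted p = 0.0315) were lower, and over all alternatives their adjusted p reached 0.358 and 0.883. EIF2S2, the beta subunit, was the most highly covered, with 389, 408 and 420 FPKM in shTRMT6 libraries and 413, 439 and 551 FPKM in shControl libraries. The gamma subunit EIF2S3, which binds GTP and the initiator tRNA, averaged 229 ± 6.94 FPKM in shTRMT6 and 217 ± 42.2 FPKM in shControl (SD, n = 3 each). Its 95% interval for the log2 fold change ran from -0.38 to 0.56. EIF2S1 encodes the alpha subunit, the target of the stress kinases. It had 79.5, 71.1 and 70.8 FPKM in shTRMT6 libraries, against 84.9, 88.6 and 285 FPKM in shControl libraries. The shTRMT6 values lay below all shControl values, but the difference rested on the control replicate 3. The log2 fold change was -0.80 with all libraries (limma adjusted p = 0.159) and -0.23 without that library (limma adjusted p = 0.295). EIF2A, a separate factor that is no subunit of eIF2, had 137, 130 and 114 FPKM in shTRMT6 libraries and 136, 105 and 154 FPKM in shControl libraries. Its groups overlapped, with a log2 fold change of -0.04 (95% interval -0.54 to 0.47).

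None of the 5 genes of the exchange factor eIF2B passed in the main test. EIF2B2, the beta subunit and the most highly covered, had 146, 114 and 126 FPKM in shTRMT6 libraries, against 64.2, 59.5 and 112 FPKM in shControl libraries. All shTRMT6 values were above all shControl values, with control replicate 3 close below them. The log2 fold change was 0.76 (SE 0.28, limma adjusted p = 0.0568). EIF2B4, the delta subunit, had 77.7, 58.7 and 50.9 FPKM in shTRMT6 libraries and 29.2, 27.6 and 58.8 FPKM in shControl libraries, and did not pass (0.75, limma adjusted p = 0.101). Without control replicate 3 both were higher, EIF2B2 with a log2 fold change of 1.04 (limma adjusted p = 0.00444) and EIF2B4 with 1.09 (limma adjusted p = 0.00939). With median scaling of all libraries EIF2B2 was at 0.27 (limma adjusted p = 0.507) and EIF2B4 at 0.26 (limma adjusted p = 0.587). With equal nuclear-encoded sums EIF2B2 passed (0.99, limma adjusted p = 0.0328) and EIF2B4 did not (0.98, limma adjusted p = 0.0588). EIF2B2 also passed with the replicate block (limma adjusted p = 0.0471). EIF2B1, EIF2B5 and EIF2B3 had log2 fold changes of 0.37, 0.37 and -0.28 that did not pass. EIF2B3, part of the catalytic pair with EIF2B5, was the lowest of the complex at 15.7 ± 1.23 FPKM in shTRMT6 and 21.7 ± 14.4 FPKM in shControl (SD, n = 3 each), and rested on an estimated 47 reads in its thinnest library. The 5 genes summed to 314 ± 33.1 FPKM in shTRMT6 and 222 ± 58.8 FPKM in shControl (SD, n = 3 each), a ratio of 1.41 that became 0.994 with median scaling.

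eIF3, the large scaffold on the small ribosomal subunit, was lower on 3 of its 13 genes and higher on none in the main test. The other 10 did not pass, and over all genes tested 9.04% were lower and 26.5% higher. With median scaling EIF3B, EIF3E, EIF3H and EIF3K were lower as well, beside 19.7% of all genes. EIF3I (ENSG00000084623, chr1:32221928-32231604, plus strand; gene positions here and below are those of GENCODE 29 on GRCh38) is a WD-repeat subunit of the module with eIF3b and eIF3g. It had 308, 336 and 277 FPKM in shTRMT6 libraries, against 691, 634 and 698 FPKM in shControl libraries. The groups were well separated and the control libraries close together. EIF3I was 2.20-fold lower, with a log2 fold change of -1.14 (SE 0.19, limma adjusted p = 0.00287) that ran from -1.63 to -0.82 over the alternatives. EIF3F (ENSG00000175390, chr11:7970251-8001862, plus strand), one of the MPN-domain pair of the octamer core with EIF3H and one of the tract genes printed above, had 119, 110 and 106 FPKM in shTRMT6 libraries and 253, 208 and 214 FPKM in shControl libraries. All shTRMT6 libraries lay at about the same level below the controls, a log2 fold change of -0.996 (SE 0.20, limma adjusted p = 0.00578). EIF3M, a PCI-domain subunit, had 363, 319 and 387 FPKM in shTRMT6 libraries, against 498, 527 and 629 FPKM in shControl libraries. It was lower by a smaller amount (-0.63, SE 0.20, limma adjusted p = 0.0356) and lost the call in 9 of the 15 alternatives, with adjusted p up to 0.246.

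EIF3E, another PCI-domain subunit, had by far the most footprints per length of the complex in every library. It had 1244, 1065 and 1145 FPKM in shTRMT6 libraries and 1584, 1499 and 1963 FPKM in shControl libraries. The shTRMT6 values were all below the shControl values, but the gene narrowly missed the threshold (log2 fold change -0.54, SE 0.20, limma adjusted p = 0.0613). EIF3K came closer, at 340 ± 34.3 FPKM in shTRMT6 and 505 ± 65.4 FPKM in shControl (SD, n = 3 each), which gave a log2 fold change of -0.57 (limma adjusted p = 0.0531). On the other side EIF3A, the largest subunit and the backbone of the complex, had 166, 157 and 197 FPKM in shTRMT6 libraries, against 58.3, 112 and 129 FPKM in shControl libraries. Its groups did not overlap, and it just missed the threshold (0.86, SE 0.30, limma adjusted p = 0.0502). EIF3A passed without control replicate 3 (1.08, limma adjusted p = 0.0176) and with equal nuclear-encoded sums (1.10, limma adjusted p = 0.0291). It was at 0.52 without control replicate 1 (limma adjusted p = 0.152) and at 0.37 with median scaling (limma adjusted p = 0.360). EIF3B, which holds EIF3I and EIF3G, had a log2 fold change of -0.43, EIF3H of -0.46, EIF3J, the loosely bound subunit, of 0.46, EIF3L of 0.18 and EIF3G of 0.00. EIF3G averaged 332 ± 30.9 FPKM in shTRMT6 and 330 ± 5.39 FPKM in shControl (SD, n = 3 each), and its 95% interval of -0.42 to 0.43 leaves room for changes of that size.

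EIF3C and EIF3D were split within the control group. EIF3C, a PCI-domain core subunit, had 233, 243 and 224 FPKM in shTRMT6 libraries and 88.6, 131 and 269 FPKM in shControl libraries. EIF3D, a subunit known to bind the cap of some mRNAs, had 128, 133 and 163 FPKM in shTRMT6 libraries and 54.5, 56.7 and 186 FPKM in shControl libraries. In both the control replicate 3 was above all shTRMT6 libraries and the other control libraries were below them, and neither passed (limma adjusted p = 0.165 for EIF3C and 0.193 for EIF3D). Without that library both were higher, EIF3C with a log2 fold change of 1.11 (limma adjusted p = 0.00483) and EIF3D with 1.32 (limma adjusted p = 0.00216). Without control replicate 1 instead, EIF3C was at 0.31 (limma adjusted p = 0.495) and EIF3D at 0.44 (limma adjusted p = 0.484). With median scaling of all libraries they were at 0.18 (limma adjusted p = 0.733) and 0.25 (limma adjusted p = 0.683). EIF3CL, a near-identical copy of EIF3C, was listed at 0 in 5 libraries and at 0.01 FPKM in shControl replicate 1, so how the authors' counting divided the reads of the copies bears on the EIF3C value.

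The levels of the eIF3 subunits were closer to each other in shTRMT6 libraries. FPKM is a level per length, so the subunits can be compared within a library. The highest subunit, EIF3E, had 10.5, 9.6 and 10.8 times the FPKM of the lowest, EIF3F, in shTRMT6 libraries. In shControl replicates 1 and 2 EIF3E had 29.1 and 26.4 times the FPKM of the lowest, EIF3D, and in replicate 3 it had 15.3 times that of EIF3A. The SD of log2 FPKM over the 13 genes was 0.86 to 0.91 in shTRMT6 libraries and 1.05 to 1.42 in shControl libraries. Relative to the median subunit of the same library, EIF3I stood at 1.31 ± 0.0743 in shTRMT6 and 2.67 ± 0.0809 in shControl (SD, n = 3 each). EIF3A stood at 0.744 ± 0.119 in shTRMT6 and 0.394 ± 0.142 in shControl (SD, n = 3 each). These ratios within a library do not depend on how the libraries are scaled, but they do depend on trends of the change with level or coding length. Over all tested genes with a coding length, the change had a Spearman's rho of -0.34 with level and 0.36 with length. Whether the narrowing is particular to eIF3 was not tested. The 13 genes summed to 4150 ± 112 FPKM in shTRMT6 and 5350 ± 569 FPKM in shControl (SD, n = 3 each), a ratio of 0.776, and 0.548 with median scaling.

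**Figure D2:**
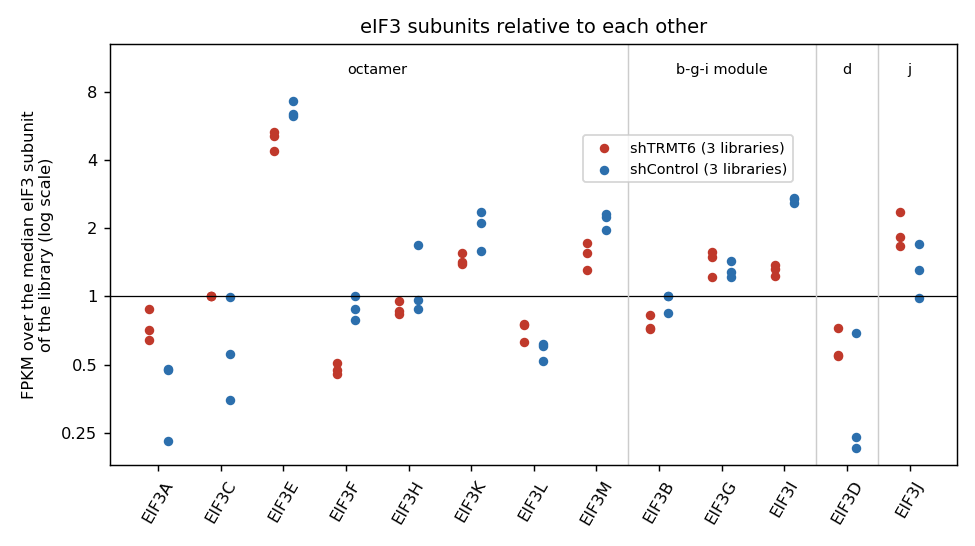
FPKM of each eIF3 subunit divided by the median subunit of the same library (vertical log axis), with 1 point per library, shTRMT6 left of shControl, in blocks for the octamer core, the b-g-i module, eIF3d and eIF3j. EIF3E is highest in every library, EIF3I is at 1.23 to 1.38 in shTRMT6 and 2.58 to 2.73 in shControl, and the spread of the subunits is narrower in shTRMT6.

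eIF4F changed in opposite directions across its parts. The helicase gene EIF4A2 was higher, the scaffold gene EIF4G1 was higher and the cap-binding gene EIF4E was lower. EIF4A2 (ENSG00000156976, chr3:186783205-186789900, plus strand) had 523, 492 and 568 FPKM in shTRMT6 libraries, against 158, 241 and 208 FPKM in shControl libraries. Every shTRMT6 value was more than any control value, and the gene was 2.61-fold higher (log2 fold change 1.40, SE 0.22, limma adjusted p = 0.00222; 0.90 to 1.64 over the alternatives). Its paralogue EIF4A1, the most highly covered of the 40 genes in all libraries but shTRMT6 replicate 3, where PABPC1 was above it, had 1914, 1908 and 1946 FPKM in shTRMT6 libraries and 2407, 2018 and 4356 FPKM in shControl libraries. The shTRMT6 values lay below all shControl values, but control replicate 3 stood far above the rest and the gene did not pass (-0.52, SE 0.28, limma adjusted p = 0.173).

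EIF4G1 (ENSG00000114867, chr3:184314495-184335358, plus strand) had 80.2, 81.4 and 81.9 FPKM in shTRMT6 libraries, against 20.3, 31.6 and 41.0 FPKM in shControl libraries. It was 2.62-fold higher with nearly equal shTRMT6 values (log2 fold change 1.42, SE 0.28, limma adjusted p = 0.00552). The call was lost in 1 of the 15 alternatives, after removal of the level and length trends (0.63, adjusted p = 0.0754, and from 0.00235 upward elsewhere). Its paralogue EIF4G3 was lower in level, at 15.2 ± 2.45 FPKM in shTRMT6 and 10.4 ± 2.39 FPKM in shControl (SD, n = 3 each), and did not pass (0.51, limma adjusted p = 0.199). EIF4E had 191, 182 and 241 FPKM in shTRMT6 libraries, against 389, 404 and 288 FPKM in shControl libraries. The groups did not overlap, though control replicate 3 was nearest to shTRMT6, and EIF4E was 1.76-fold lower (log2 fold change -0.81, SE 0.22, limma adjusted p = 0.0208). Its call was lost in 6 of the 15 alternatives, with adjusted p from 0.00243 to 0.0862. The 5 genes summed to 2751 ± 91.4 FPKM in shTRMT6 and 3531 ± 1198 FPKM in shControl (SD, n = 3 each), of which EIF4A1 made up 69.9% in shTRMT6 and 82.9% in shControl. Without EIF4A1 the ratio of the sums turned to 1.37, against 0.779 with it. With EIF4A1 but without control replicate 3 the ratio was 0.968.

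The helicase helpers also moved apart. EIF4H (ENSG00000106682, chr7:74174245-74197101, plus strand) had 339, 340 and 316 FPKM in shTRMT6 libraries, against 656, 605 and 832 FPKM in shControl libraries. It was 2.10-fold lower with a wide gap between the groups (log2 fold change -1.06, SE 0.20, limma adjusted p = 0.00482; -1.55 to -0.68 over the alternatives). EIF4B, which like EIF4H stimulates eIF4A, had 252, 224 and 257 FPKM in shTRMT6 libraries and 92.8, 109 and 207 FPKM in shControl libraries. It was higher (0.93, SE 0.30, limma adjusted p = 0.0360), with control replicate 3 near the shTRMT6 values, and lost the call in 9 of the 15 alternatives, among them median scaling (0.43, adjusted p = 0.302, with adjusted p from 0.00181 in the other alternatives).

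Among the relatives and inhibitors of eIF4E, EIF4EBP1 was lower. The gene (ENSG00000187840, chr8:38030341-38060365, plus strand) encodes 4E-BP1, the mTORC1-regulated inhibitor of eIF4E, and had 95.7, 100.4 and 72.5 FPKM in shTRMT6 libraries, against 230, 210 and 118 FPKM in shControl libraries. It was 2.08-fold lower (log2 fold change -1.002, SE 0.29, limma adjusted p = 0.0236). The control replicate 3 was the lowest of its group, and the call was lost in 5 of the 6 fits without 1 library, all but the one without that replicate, with adjusted p from 0.00276 to 0.0938. EIF4EBP2 averaged 31.5 ± 6.45 FPKM in shTRMT6 and 31.6 ± 9.84 FPKM in shControl (SD, n = 3 each), with a 95% interval of -0.66 to 0.70 for the log2 fold change. It is short and low, with an estimated 23 reads in its thinnest library. EIF4E2, a cap-binding protein that represses translation, had a log2 fold change of -0.31 (limma adjusted p = 0.290). EIF4G2 encodes DAP5, an eIF4G relative that lacks the eIF4E site. It was the most highly covered of these 4 genes, at 736, 715 and 805 FPKM in shTRMT6 libraries and 679, 840 and 657 FPKM in shControl libraries, with overlapping groups and a log2 fold change of 0.06 (95% interval -0.38 to 0.50).

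**Figure D3:**
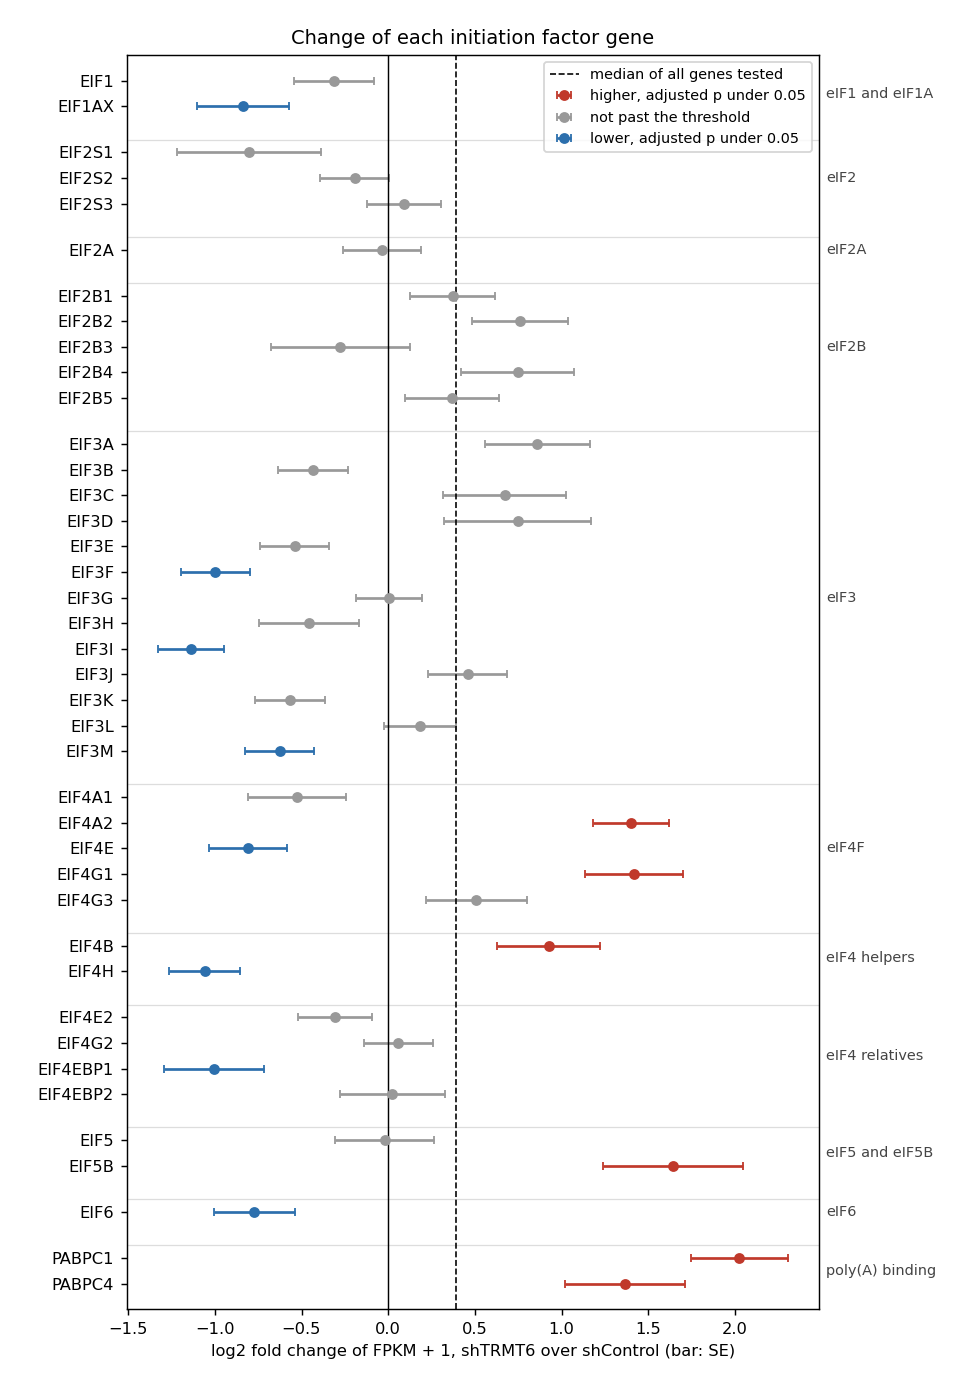
Log2 fold change of FPKM + 1, shTRMT6 over shControl, of the 40 genes by complex (horizontal axis, bars are the SE), coloured by whether they passed the threshold, with a dashed line at the median of all genes tested, 0.39. PABPC1 is the farthest to the right at 2.02 and EIF3I the farthest to the left at -1.14, and each of eIF4F and the eIF4 helpers holds called genes on both sides.

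The last steps of initiation differed between their factors. EIF5B (ENSG00000158417, chr2:99337353-99401326, plus strand), the GTPase of subunit joining, had 35.8, 31.4 and 45.5 FPKM in shTRMT6 libraries, against 5.36, 18.4 and 13.8 FPKM in shControl libraries. All shTRMT6 libraries were above all shControl libraries, and EIF5B was 3.00-fold higher (log2 fold change 1.64, SE 0.41, limma adjusted p = 0.0130). The call was lost after removal of the level and length trends (0.86, limma adjusted p = 0.0898) and in the fit that left out shTRMT6 replicate 3 (1.499, limma adjusted p = 0.0551), and over all alternatives the adjusted p started at 0.00590. EIF5, which activates the GTPase of eIF2, had 175, 152 and 192 FPKM in shTRMT6 libraries and 136, 145 and 271 FPKM in shControl libraries. Its groups overlapped, with a log2 fold change of -0.02 (95% interval -0.66 to 0.61). EIF6 keeps free large subunits from joining small ones. It had 232, 244 and 171 FPKM in shTRMT6 libraries and 383, 294 and 431 FPKM in shControl libraries, without overlap. It was lower (-0.77, SE 0.24, limma adjusted p = 0.0296) and lost the call in 8 of the 15 alternatives, with adjusted p from 0.00541 to 0.138. Another gene (ENSG00000261582) shares coding sequence with EIF6 on the same strand in GENCODE 29 and had 63.9, 31.5 and 17.7 FPKM in shTRMT6 libraries, against 4.41, 0 and 0 FPKM in shControl libraries. How reads were divided between them was not tested.

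Both poly(A)-binding protein genes were higher. PABPC1, the main cytoplasmic form (ENSG00000070756, chr8:100685816-100722809, minus strand), had 1518, 1747 and 1998 FPKM in shTRMT6 libraries, against 279, 551 and 510 FPKM in shControl libraries. Every shTRMT6 library was far above the highest control library. PABPC1 was 3.93-fold higher (log2 fold change 2.02, SE 0.28, limma adjusted p = 0.00142; 1.53 to 2.44 over the alternatives), the largest change of the 40 genes in the main test. PABPC4 (ENSG00000090621, chr1:39560816-39576790, minus strand), an inducible form, had 154, 175 and 172 FPKM in shTRMT6 libraries and 35.5, 101 and 73.5 FPKM in shControl libraries. It was 2.39-fold higher (1.36, SE 0.35, limma adjusted p = 0.0143), and the call was lost in 3 of the 15 alternatives, with adjusted p from 0.00504 to 0.0642. PABPC3, an intronless copy of PABPC1, had 4.11 to 4.81 FPKM in shTRMT6 libraries and 0 to 1.9 FPKM in shControl libraries. The 2 genes summed to 1922 ± 249 FPKM in shTRMT6 and 517 ± 179 FPKM in shControl (SD, n = 3 each), a ratio of 3.72, and 2.66 with median scaling.

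Within 5 pairs of paralogues the shares differed between the groups. Such shares do not depend on the scaling of the libraries, but they do depend on trends of the change with level or coding length. EIF4A2 made up 21.5%, 20.5% and 22.6% of the FPKM of EIF4A1 and EIF4A2 in shTRMT6 libraries, against 6.16%, 10.7% and 4.55% in shControl libraries. EIF4EBP2 made up 25.97% ± 1.74 of the 4E-BP pair in shTRMT6 and 14.7% ± 2.16 in shControl (SD, n = 3 each). In the other direction EIF4G3 made up 15.7% ± 2.00 of its pair with EIF4G1 in shTRMT6 and 25.8% ± 3.57 in shControl (SD, n = 3 each). PABPC4 made up 8.76% ± 0.71 of its pair in shTRMT6 and 13.1% ± 2.13 in shControl (SD, n = 3 each). EIF4E2 held 46.9% ± 5.32 of its pair with EIF4E in shTRMT6 and 38.4% ± 0.142 in shControl (SD, n = 3 each). The groups did not overlap in any of these 5 pairs. Single genes also often did not overlap, with shTRMT6 above for 37% and below for 14.3% of all genes tested. The nearest libraries of the groups were at 41.5% and 38.6% for EIF4E2 and at 9.21% and 11.3% for PABPC4 (shTRMT6 first). The EIF4EBP2 share rests on an estimated 23 reads in its thinnest library. No test was run on the shares, and none were computed for other pairs of genes.

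**Figure D4:**
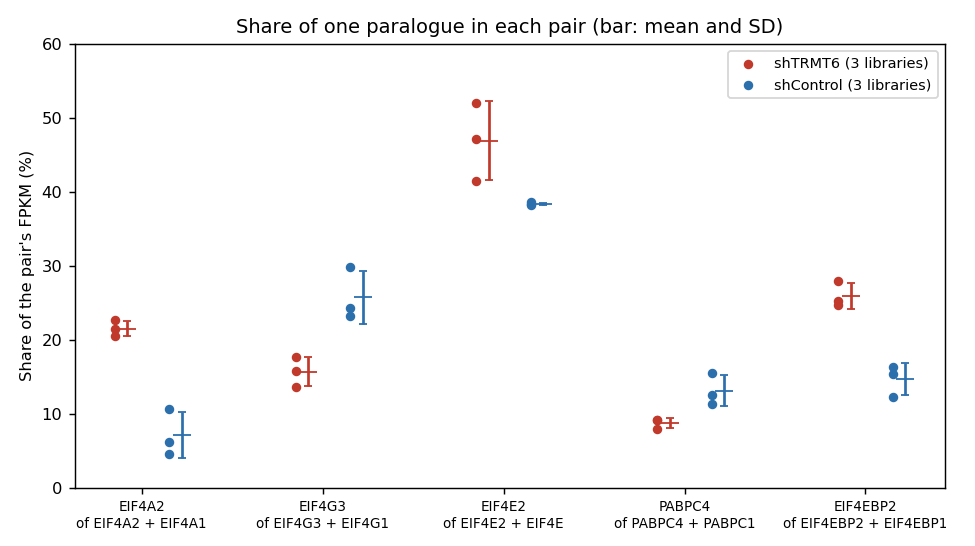
Share of 1 paralogue in the summed FPKM of its pair, in percent, with 1 point per library, shTRMT6 left of shControl, and a bar for the mean and SD of each group. The EIF4A2 share is 20.5% to 22.6% in shTRMT6 and 4.55% to 10.7% in shControl. The groups are separate in all 5 pairs, with small gaps for EIF4E2 and PABPC4.

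The change of the 40 genes went with the length of the coding sequence. The 6 higher genes had coding lengths of 1224 to 4818 nt (median 1944) and the 8 lower genes 354 to 1122 nt (median 744), so the called groups did not overlap in length. Spearman's rho of the log2 fold change with coding length was 0.65 over the 40 genes and 0.36 over 11501 tested genes with a coding length. With mean level it was -0.42 over the 40 genes and -0.34 over the tested genes. These correlations run across genes of the same 6 libraries, and genes are no independent replicates. In 8 bins by coding length the median log2 fold change of all genes was -0.10 in the bin with a median length of 429 nt and 0.88 in the bin at 4167 nt. EIF4A2 has about the same coding length as EIF4A1, 1224 and 1218 nt, and their log2 fold changes were 1.40 and -0.52. The EIF4A1 change did not pass, and the pair is not matched in level. EIF4A1 averaged 1923 FPKM in shTRMT6 and 2927 FPKM in shControl, and EIF4A2 528 and 202 FPKM. After removal of the level and length trends, PABPC1 (2.06, limma adjusted p = 0.000574), EIF4A2 (1.56, adjusted p = 0.00104), PABPC4 (1.00, adjusted p = 0.0360) and EIF3J (0.80, adjusted p = 0.0147) were higher. EIF4EBP1, EIF3F, EIF3I, EIF4H and EIF3B were lower, and EIF3J and EIF3B had not passed in the main test. EIF3J also passed with quantile normalization (0.74, limma adjusted p = 0.0261) and with equal nuclear-encoded sums (0.70, limma adjusted p = 0.0213) and had an adjusted p of 0.912 with median scaling. EIF3B also passed with median scaling (-0.93, limma adjusted p = 0.00828), and its adjusted p reached 0.466 with equal nuclear-encoded sums. After the removal, rho with coding length was 0.37 over the 40 genes and 0.0 over the tested genes, and rho with level was -0.04 over the 40 genes.

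**Figure D5:**
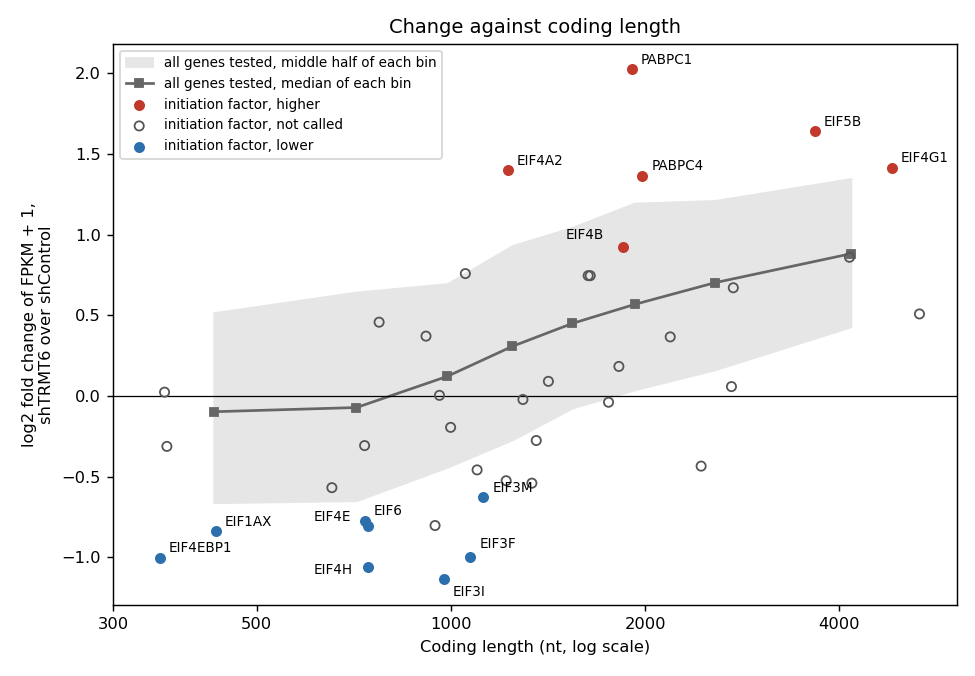
Log2 fold change of FPKM + 1, shTRMT6 over shControl, against coding length in nt (log axis) for the 40 genes, over the median and interquartile band (grey) of all genes tested in 8 length bins. The lower genes lie at 354 to 1122 nt and the higher ones at 1224 to 4818 nt, and PABPC1, EIF4A2, PABPC4, EIF5B and EIF4G1 lie above the band of their bin.

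Other genes that act on initiation also moved both ways. Of 22 further initiation factors and partners 20 were tested, and of these 3 were higher and 5 lower, beside 26.5% and 9.04% of all genes tested. Their median log2 fold change was -0.18, and that of all genes 0.39. Median scaling made it 2 higher and 8 lower, beside 13.1% and 19.7%. LARP1, the repressor of TOP mRNAs, was at 343 ± 13.04 FPKM in shTRMT6 and 119 ± 11.6 FPKM in shControl (SD, n = 3 each), which gave a log2 fold change of 1.52 (limma adjusted p = 0.00114). EIF2D, which can place the initiator tRNA without eIF2, was at 180 ± 15.2 FPKM in shTRMT6 and 46.7 ± 32.8 FPKM in shControl (SD, n = 3 each), which gave 2.13 (limma adjusted p = 0.00421). EIF5A, which relieves stalled elongation despite its name, was at 3208 ± 148 FPKM in shTRMT6 and 6780 ± 622 FPKM in shControl (SD, n = 3 each), which gave -1.08 (limma adjusted p = 0.00391). BZW2, a mimic of eIF5, had a log2 fold change of -1.12. The others that passed, named after their values were seen, were GIGYF2 among the higher genes and PAIP2, an inhibitor of PABPC1, MCTS1 and BZW1 among the lower ones. PAIP2 kept its call in all 15 alternatives, while GIGYF2 lost it in 8, BZW1 in 9 and MCTS1 in 6.

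In the list of eIF2 kinases and phosphatases 5 of 11 genes were higher and 2 lower, beside 26.5% and 9.04% of all genes tested. Their median log2 fold change was 0.44, and that of all genes 0.39. Median scaling left 1 higher and 2 lower, beside 13.1% and 19.7%. PPP1R15A, which directs phosphatase to eIF2, was higher (log2 fold change 1.33, limma adjusted p = 0.00419), and the phosphatase catalytic gene PPP1CA was lower (-1.18, limma adjusted p = 0.00448). Both kept their call in all 15 alternatives. The kinase genes EIF2AK3 (1.43) and EIF2AK1 (0.88) were higher. Neither passed under median scaling, where their limma adjusted p was 0.0507 and 0.235, in a range over the alternatives of 0.00662 to 0.163 for EIF2AK3 and 0.00408 to 0.235 for EIF2AK1. EIF2AK4 and PPP1R15B, higher, and PPP1CC, lower, also passed and were named after their values were seen. They lost their call in 7, 8 and 10 of the 15 alternatives in that order. In the mTORC1 and eIF4E kinase list 5 of 15 genes were higher and 1 lower, beside 26.5% and 9.04% of all genes tested, with a median of 0.43, near the 0.39 of all genes. With median scaling 1 was higher and 3 lower, beside 13.1% and 19.7%. RPS6KB2, an S6 kinase, was higher (1.94, limma adjusted p = 0.00397), as were MTOR (1.15) and MKNK2, a kinase of eIF4E (0.85), while RHEB, the activator of mTORC1, was lower (-0.83). MLST8 and TSC1, higher, were named after their values were seen. RPS6KB2 kept its call in all 15 alternatives. MTOR, MKNK2, MLST8 and TSC1 lost theirs under median scaling, and in 4, 3, 4 and 7 of the 15 alternatives in that order. RHEB lost its call in 6 of the 15, among them quantile normalization and the removal of the level and length trends.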

How the data were processed

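Footprints protected by ribosomes from RNase I were sequenced from RKO cells, 3 libraries with the TRMT6 hairpin and 3 with the control hairpin. The authors deposited 1 table of FPKM values per gene, per the file headers, made with fastp, STAR and RSEM, per the submitters' processing notes. Their versions and settings, the genome build and the annotation were not given in the sources used here. Columns NC were taken as shControl and columns SH as shTRMT6, a reading that the labels leave unstated, and 0 columns had no sample. Symbols were found for 20257 of 20289 identifiers. Positions and coding lengths are from GENCODE 29 (GRCh38) and start sequences from RefSeq (GRCh38.p14), either of which can differ from what the authors used.

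Read numbers were estimated from the smallest FPKM steps, with 66.3% to 73.2% of low values near a whole number of reads (tolerance 0.1). They are too inexact for a count model.

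limma 3.58.1 (R 4.3.3) was fitted to log2(FPKM + 1) with the 2 groups, an eBayes intensity trend and Benjamini-Hochberg adjustment over the 11566 genes that reached 1 FPKM in at least 3 libraries. The pseudocount understates changes of low genes. The script was tested on simulated data. The 15 alternatives were median scaling, quantile normalization, equal nuclear-encoded sums, removal of level and length trends (splines with 5 degrees of freedom, 65 genes dropped for want of a coding length), no filter, a filter at a mean of 5 FPKM, a pseudocount of 0.1, eBayes without trend, a replicate block and each library left out. Sums by complex and paralogue shares have no test. The 40 genes and the companion lists were chosen with earlier results of these data known. All 40 genes are named. Values per library were due for called genes with an absolute log2 fold change of at least 1 and for the highest gene of each complex, and others were added after values were seen. Up to 4 genes with the smallest p were due per companion list. Python 3.11.15, pandas 2.3.3, numpy 2.4.6, scipy 1.17.1 and matplotlib 3.10.9 were used.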

Additional observations from a re-analysis of the deposited data

How the results depend on the processing

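Of the 14 called initiation factors 5 kept their call in all 15 alternatives, and none of the 14 reversed. Lower genes among the 40 numbered 17 with median scaling, 4 with quantile normalization and 5 with equal nuclear-encoded sums, with the trends removed or with eBayes without the intensity trend, against 8. Leaving out 1 library gave 3 to 11 higher (11 without shControl replicate 3, 3 without shTRMT6 replicate 3, against 6) and 3 to 12 lower (12 without shControl replicate 3, at most 5 without any other library). Over all genes, 3069 were higher and 1046 lower, against 1520 and 2275 with median scaling, 1602 and 1700 with quantile normalization, 1546 and 1558 with the trends removed, and 1828 to 3270 and 587 to 1428 without 1 library. Deviations of same-numbered libraries had r of 0.012, 0.013 and 0.102, within the -0.143 to 0.127 of differently numbered ones. With 3 libraries per group this cannot tell whether the libraries were paired. With the replicate block 8 of the 40 were higher and 8 lower, against 27.2% and 9.21% of all genes (3146 and 1065).

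Ratios of summed FPKM, shTRMT6 over shControl, became 0.503 for eIF1 with eIF1A (against 0.711), 0.596 for eIF2 (0.845), 0.994 for eIF2B (1.41), 0.548 for eIF3 (0.776), 0.547 for eIF4F (0.779), 0.754 for eIF5 with eIF5B (1.07) and 2.66 for poly(A) binding (3.72) with median scaling. With equal nuclear-encoded sums they were 0.847 for eIF1 with eIF1A, 0.977 for eIF2, 1.64 for eIF2B and 0.907 for eIF3. For eIF4F, eIF5 with eIF5B and poly(A) binding they were 0.897, 1.23 and 4.33. Without 1 library the ratio ran from 0.660 to 0.751 for eIF1 with eIF1A and 0.777 to 1.00 for eIF2. For eIF2B it was 1.31 to 1.67, for eIF3 0.751 to 0.826 and for eIF4F 0.698 to 0.968. For eIF5 with eIF5B it was 0.941 to 1.38 and for poly(A) binding 3.11 to 4.28. Without their highest gene the ratios were 0.583 for eIF1 with eIF1A, 1.37 for eIF4F, 3.00 for eIF5 with eIF5B and 2.39 for poly(A) binding.

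Genes that had not passed changed sign and still did not pass. With median scaling the log2 fold change was -0.40 for EIF2S3, -0.12 for EIF2B1, -0.12 for EIF2B5, -0.49 for EIF3G, -0.038 for EIF3J, -0.31 for EIF3L, -0.44 for EIF4G2 and -0.46 for EIF4EBP2. With quantile normalization it was 0.30 for EIF1, 0.084 for EIF2S2, -0.067 for EIF2B5, 0.036 for EIF3E, 0.024 for EIF4A1, -0.16 for EIF4G3, -0.46 for EIF4EBP2 and 0.0012 for EIF5. With equal nuclear-encoded sums it was 0.043 for EIF2S2, 0.20 for EIF2A and 0.21 for EIF5. With the trends removed it was 0.15 for EIF1, 0.11 for EIF2S2, -0.28 for EIF2B5, -0.044 for EIF3L, -0.43 for EIF4G3, -0.012 for EIF4G2 and -0.21 for EIF4EBP2. The cause was not tested. Median scaling and equal nuclear-encoded sums scale all genes of a library by the same factor. Quantile normalization and the removal of trends shift genes by different amounts. Without 1 library EIF2A ran from -0.19 to 0.083, EIF2B3 from -0.52 to 0.21, EIF3G from -0.040 to 0.084, EIF4G2 from -0.0079 to 0.17, EIF4EBP2 from -0.22 to 0.23 and EIF5 from -0.20 to 0.29. The estimated depth limits EIF4EBP2, EIF2B3, EIF5B and EIF4EBP1, with 23, 47, 64 and 66 reads in their thinnest libraries.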
